A study of Homo sapiens with 4 samples.

Results

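The genes described are the 10 that encode the subunits of the condensin complexes and the ATPase pair of the SMC5/6 complex. They were chosen by name, with no measured value in the rule, though earlier results of these data were known. SMC2 and SMC4 are the ATPases of both condensins. NCAPD2, NCAPG and NCAPH belong to condensin I, NCAPD3, NCAPG2 and NCAPH2 to condensin II, and SMC5 and SMC6 to the third complex. All 10 were found among the 60656 gene identifiers of the deposited files, and all 10 were among the 19103 genes with enough reads to test.

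Newly made RNA was measured by TTchem-seq, which sequences RNA that took up 4-thiouridine during a brief pulse, in HCT116, a human colorectal carcinoma line. The 4 libraries form a DKO and a WT group of 2 each, compared to learn how transcription differs without type II topoisomerases. The DKO group is labelled as lacking both TOP2A and TOP2B. Per the labels' protocols these cells carry mAID, an auxin-inducible degron, on TOP2A and are TOP2B -/-, and TOP2A was degraded with 500 µM auxin (indole-3-acetic acid) for 8 h. The WT group is labelled wildtype. The protocol names the HCT116 TOP2A mAID line beside the TOP2B -/- line and names auxin only for the latter, so it does not settle whether the WT libraries carry the tag or received auxin. Before the pulse, 30 min of 1 mM 4-thiouridine, both lines spent 28 h in 2 µM palbociclib, which blocks the G1 kinases CDK4 and CDK6. Loss of the enzymes, auxin and any difference between the lines cannot be told apart. Nothing in the labels says that the 2 libraries of a group came from separate cultures or that a line is more than 1 clone, so p-values measure only the spread between these libraries.

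SMC complexes are rings. A pair of long coiled-coil ATPases is closed by a kleisin protein that carries further regulatory subunits. Condensin folds interphase DNA into compact mitotic chromosomes by extruding loops. Condensin II is nuclear throughout the cell cycle, while condensin I reaches chromosomes after the nuclear envelope breaks down. SMC5/6, with its NSE subunits, one of which is a SUMO ligase, acts in recombination and in DNA replication under stress. It is also known to silence DNA circles that are not part of a chromosome. Condensins and topoisomerase II are the main proteins of the mitotic chromosome scaffold.

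The libraries held 51142867 to 53777749 counted reads. Reads of mitochondrial genes were 3.86% and 3.56% of the total in DKO and 5.16% and 4.64% in WT. Of 10 colorectal epithelial markers, 6 exceeded 10 CPM (read counts scaled to an equal library size), among them EPCAM and KRT8. The gut markers CDX1, VIL1 and CDH17 had at most 11 reads in each library, and LGALS4 had 10 to 15. The summed level of the 10 was 425 and 445 CPM in DKO and 468 and 502 CPM in WT. Of 8 fibroblast, blood cell and endothelial markers none exceeded 10 CPM. COL1A2 had no read, and COL1A1, the highest, had 158 to 192 reads a library. The sum of the 8 was 4.17 and 4.91 CPM in DKO and 4.89 and 5.06 CPM in WT. The TOP2B gene gave 147 and 150 CPM in DKO and 140 and 143 CPM in WT. Reads of a gene can persist in a knockout, and a degron removes TOP2A protein and not its RNA. Neither gene therefore checks the labels.

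Transcription of SMC4 and SMC6 was higher in DKO than in WT, by 24.4% and 30.2%. None of the other 8 genes passed the test, among them the ATPase partner of each, SMC2 and SMC5, and all 3 subunits specific to each condensin. Levels are shares of a library, and in bulk samples fewer cells that transcribe a gene cannot be told apart from less RNA per cell. Called here means a Benjamini-Hochberg adjusted p under 0.05 over all tested genes in the quasi-likelihood test of edgeR. By that rule 2 of 10 were higher and 0 lower. Of all tested genes 40.1% were called, 19% higher and 21.1% lower. Among the 8069 tested protein-coding genes whose level was at least that of the lowest of the 10, 49.2% were called. The share of the 10 called higher is thus close to the background, and the share called in either direction is below it. The median log2 difference (DKO minus WT) was 0.01 for the 10 and -0.006 for all tested genes. The median size of the difference, without its sign, was 0.03 for the 10 and 0.19 for all tested genes. All tested genes include ones with few reads and wider standard errors than the 10. A median for genes of like level was not computed, so nothing is read from this gap.

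**Figure D1:**
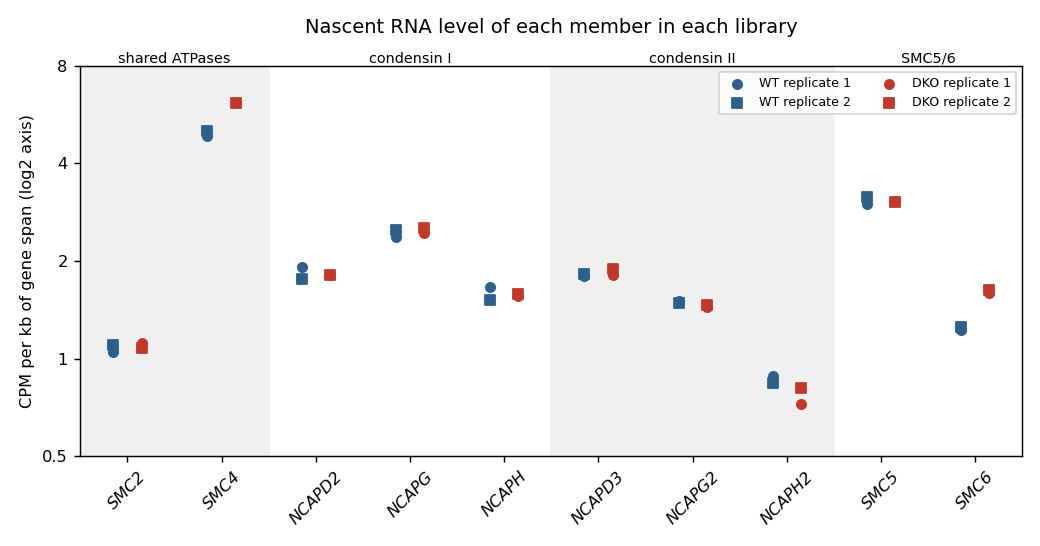
Level of the 10 genes in each of the 4 libraries, as CPM per kilobase of annotated span on a log2 axis. SMC4 was the highest and NCAPH2 the lowest gene in every library. The DKO points lie apart from and above the WT points for SMC4 and SMC6.

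**Figure D2:**
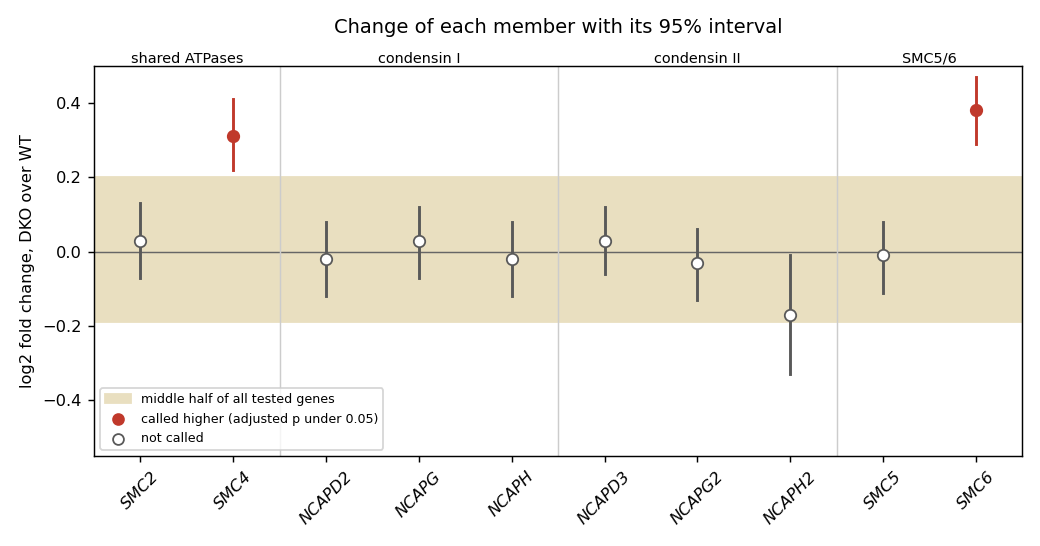
Log2 difference of DKO minus WT for each of the 10 genes, with its 95% interval. The shaded band runs from the lower quartile (-0.19) to the upper quartile (0.2) of all tested genes, and SMC4 and SMC6 lie beyond it. All tested genes include ones with few reads and wider standard errors.

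SMC4 lies on the forward strand at chr3:160399650-160434953 (GRCh38.p14, the hg38 build) and was listed as ENSG00000113810.16. It had 218 and 216 CPM in the DKO libraries and 172 and 177 CPM in the WT libraries. Both DKO values were above both WT values, with means of 217 ± 1.6 and 175 ± 4.1 CPM (SD, n = 2 each). The log2 difference was 0.31 with a standard error of 0.05 and an edgeR adjusted p of 3.1e-09. SMC2, its partner in both condensins, lies at chr9:104088263-104141419 on the forward strand. It had 59.5 and 57.3 CPM in DKO and 55.9 and 58.6 CPM in WT, and the groups overlapped. Its log2 difference was 0.03 with a 95% interval of -0.07 to 0.13. The level of SMC4 per kb divided by that of SMC2 was 5.52 and 5.68 in DKO and 4.62 and 4.56 in WT. These 4 ratios did not overlap between groups, and the exact two-sided permutation test gave p = 0.333, the smallest that 2 against 2 libraries allow (adjusted over 5 ratios, 0.416).

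SMC4 is also the host gene of a microRNA pair, MIR15B and MIR16-2, which belong to a family known for restraining cyclins and BCL2. The mature sequences below, from the RefSeq annotation of GRCh38.p14, are shown because they lie in the same transcribed stretch as the changed host. Capitals mark the seed, bases 2 to 8, which both share. They lie at chr3:160404607-160404628 and chr3:160404754-160404775, forward strand.
hsa-miR-15b-5p: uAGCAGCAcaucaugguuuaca
hsa-miR-16-5p: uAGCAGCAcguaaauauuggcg
Both hairpin genes are listed at 0 reads in every library. At the density of reads over SMC4 their 98 and 81 bases would have held 114 and 94.3 reads over the 4 libraries. Of 75 genes nested in a well-covered gene on the same strand, with at least 50 reads due, 60 (80%) had no read, against 43 of 469 (9.17%) nested on the opposite strand. This pattern is that of counting by strand with reads in same-strand overlaps assigned to no gene. SCARNA10, within NCAPD2, had 0 reads as well, with 126 due at the density of NCAPD2. Nothing can be said from these files of the small RNAs themselves.

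No subunit specific to condensin I passed the test, and the median log2 difference of the 3 was -0.02. NCAPD2, a HEAT-repeat subunit, had 68.6 and 68.7 CPM in DKO and 72.7 and 66.5 CPM in WT, so the DKO values lay inside the WT range. NCAPG, the other HEAT-repeat subunit, had 82.6 and 85.4 CPM in DKO and 80.5 and 84.6 CPM in WT. NCAPH, the kleisin that closes the ring, had 64.6 and 65.3 CPM in DKO and 68.9 and 62.6 CPM in WT. The groups overlapped for all 3 genes. The 95% intervals were -0.12 to 0.08 for NCAPD2, -0.07 to 0.12 for NCAPG and -0.12 to 0.08 for NCAPH.

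No subunit specific to condensin II passed the test either, and the median log2 difference of the 3 was -0.03. NCAPD3, a HEAT-repeat subunit, had 136 and 142 CPM in DKO and 135 and 137 CPM in WT, with an interval of -0.06 to 0.12. NCAPG2, the other one, had 106 and 108 CPM in DKO and 111 and 109 CPM in WT. Its groups did not overlap, yet the log2 difference was -0.03, with an interval of -0.13 to 0.06. NCAPH2, the kleisin of condensin II, was the lowest of the 10, with 12 and 13.4 CPM in DKO and 14.6 and 13.9 CPM in WT, or 637 to 759 reads a library. Both DKO values were below both WT values. The log2 difference was -0.17 with a standard error of 0.08 and an interval of -0.33 to -0.01. Its edgeR adjusted p was 0.0777. Without DKO replicate 2 it was called lower, at -0.255 with an adjusted p of 0.0314. Without DKO replicate 1 it had -0.092, with an adjusted p of 0.491.

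Matching subunits of condensin II and condensin I were also set against each other as ratios of levels per kb. NCAPD3 over NCAPD2 was 0.996 and 1.04 in DKO and 0.934 and 1.04 in WT. NCAPG2 over NCAPG was 0.593 and 0.585 in DKO and 0.633 and 0.593 in WT. NCAPH2 over NCAPH was 0.462 and 0.511 in DKO and 0.53 and 0.554 in WT. The last ratio was lower in both DKO libraries, by 0.16 on the log2 scale. The exact permutation p was 0.667 for the first ratio and 0.333 for the others, or 0.667 and 0.416 after adjustment over 5 ratios. With 2 against 2 libraries 0.333 is the smallest p this test can give, so it cannot show a difference in any of these ratios.

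SMC6 (ENSG00000163029.16) lies at chr2:17663812-17753810 on the reverse strand and showed the largest difference of the 10. It had 143 and 147 CPM in DKO and 110 and 113 CPM in WT. The groups were well apart, with means of 145 ± 2.8 and 112 ± 2.7 CPM (SD, n = 2 each). The log2 difference was 0.38 with a standard error of 0.05 and an edgeR adjusted p of 8.9e-13. SMC5, its partner, lies at chr9:70258978-70354873 on the forward strand. It had 293 and 291 CPM in DKO and 287 and 303 CPM in WT, the DKO values inside the WT range. Its log2 difference was -0.01, with an interval of -0.11 to 0.08. SMC6 over SMC5 per kb was 0.521 and 0.538 in DKO and 0.407 and 0.399 in WT, with no overlap (exact permutation p = 0.333, the smallest possible; adjusted 0.416). Among 9146 protein-coding genes whose mean log2 CPM reached 3, the profiles nearest to SMC6 over the 4 libraries were those of TRAF3IP2, HIVEP1 and GLCCI1. Their Euclidean distances on centred log2 CPM were 0.0113, 0.014 and 0.0167, and their log2 differences 0.38, 0.38 and 0.39. They were chosen by nearness on these same values, so the likeness follows from the choice and nothing is read from it.

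Transcription per length ran over a wide range that both groups shared. In WT the order of CPM per kb was SMC4 (4.94), SMC5 (3.08), NCAPG (2.44), NCAPD2 (1.84), NCAPD3 (1.81), NCAPH (1.59), NCAPG2 (1.49), SMC6 (1.24), SMC2 (1.08) and NCAPH2 (0.862). Of the neighbours in this order, NCAPD2 and NCAPD3 overlapped between the 2 WT libraries, and each other gene lay above the next in both libraries. NCAPH and NCAPG2 were nearly level, with 1.51 CPM per kb in the lower library of NCAPH and 1.5 in the higher one of NCAPG2. In DKO, SMC6 stood at 1.61 CPM per kb, above NCAPH (1.57) and NCAPG2 (1.46), both of which it was below in WT. NCAPD3 (1.84) and NCAPD2 (1.81) overlapped in DKO too. The highest gene exceeded the lowest 8.04-fold in DKO and 5.73-fold in WT. In every library SMC4 was several times its partner SMC2, while SMC6 was below its partner SMC5. Span is the annotated gene body, and which features were counted is not given in the sources used here.

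The strongest difference near any of the 10 genes was at VSNL1, which encodes a neuronal calcium sensor. It is transcribed towards SMC6 from the opposite strand and ends 6.79 kb from the end of SMC6. It had 102 and 114 CPM in DKO against 0.791 and 1.06 CPM in WT, a fold difference of 116 (log2 6.86, standard error 0.09, edgeR adjusted p = 7.15e-143). GEN1, a Holliday junction resolvase, overlaps the start of SMC6 by 0.533 kb on the opposite strand. It had 63.6 and 62.8 CPM in DKO and 57.8 and 61.9 CPM in WT and was not called (log2 difference 0.08, adjusted p = 0.219). Within 1 Mb on either side of SMC6, 4 of the 6 other tested genes were higher and 0 lower, with a median of 0.68. The shares over all tested genes were 19% higher and 21.1% lower. KCNS3 (0.52) and CYRIA (0.84), named after their values were seen, were 2 of the 4. Without WT replicate 1, CYRIA was not called (adjusted p = 0.0597). Whether reads from transcription past the end of VSNL1 entered the SMC6 count was not tested.

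Around SMC4, 6 of 13 tested genes within 1 Mb were higher and 1 lower, with a median of 0.18. Over all tested genes 19% were higher and 21.1% lower. KPNA4, an importin 60.1 kb away, named after its value was seen, rose by 0.28 on the log2 scale (edgeR adjusted p = 2.28e-07, or 0.0574 without WT replicate 1). The next gene downstream of SMC4, TRIM59, ends 0.549 kb from the end of SMC4 on the opposite strand and was at 1.08 to 1.31 CPM, not called (adjusted p = 0.408). IFT80, 0.424 kb from the start of SMC4, is listed at 0. The spans of TRIM59 and IFT80 both lie under the readthrough gene TRIM59-IFT80 on the same strand. The counting rule above may therefore have removed reads of either. No counted identifier was matched to TRIM59-IFT80, however, and this was not tested. SMC5 stood in a region where 5 of 9 tested genes were higher and 0 lower (median 0.47). KLF9, a transcription factor gene 29.7 kb away, was higher by 1.29, while SMC5 had -0.01. KLF9 was named after its value was seen.

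**Figure D3:**
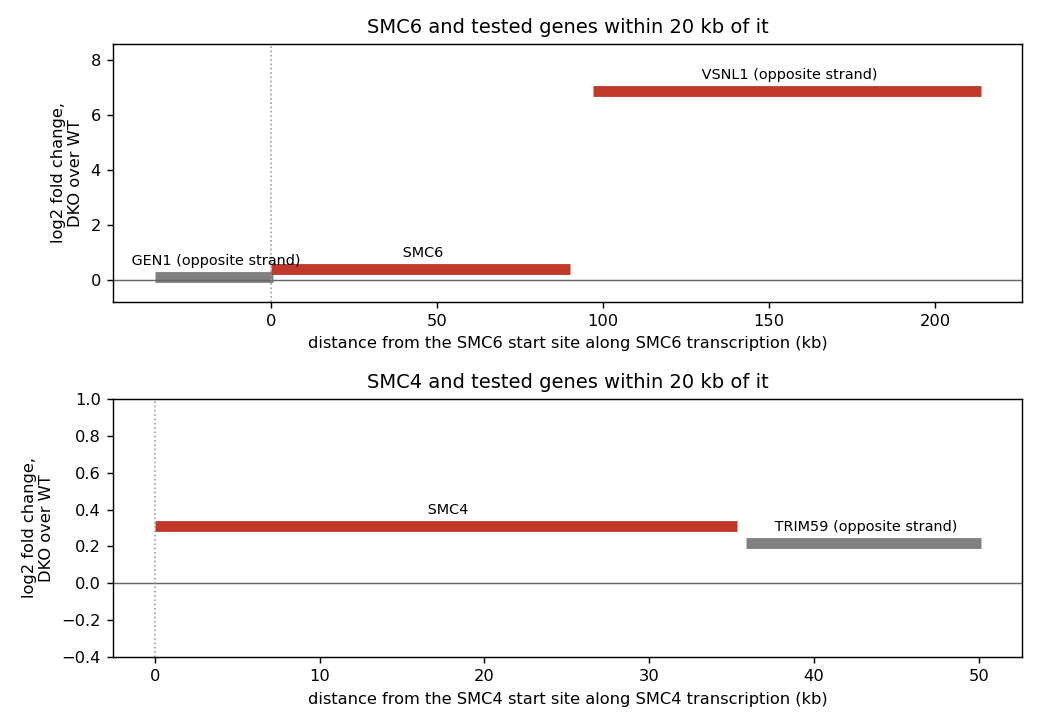
Log2 difference of DKO minus WT for SMC6, SMC4 and the tested genes within 20 kb of each, placed by distance from the start of SMC6 or SMC4. VSNL1, beside SMC6, was higher by 6.86 and SMC6 by 0.38. SMC4 was higher by 0.31, and TRIM59 beside it was not called.

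Within 20 kb of the 10 genes, SMC4 and SMC6 included, 18 genes were tested, 2 of them higher and 7 lower. That share lies near the 40.1% of all tested genes and the 49.2% of comparably transcribed protein-coding genes called, so nothing is read from it. Upstream of NCAPG, DCAF16 starts 0.221 kb away on the opposite strand. It had 75.4 and 69.9 CPM in DKO and 82.2 and 86.2 CPM in WT, a log2 difference of -0.21 (adjusted p = 0.000151). LCORL, which overlaps the other end of NCAPG by 3.68 kb, had 207 and 211 CPM in DKO and 179 and 182 CPM in WT, a log2 difference of 0.21 (adjusted p = 7.75e-05). NCAPG itself, between them, had 0.03. Without WT replicate 1, or without WT replicate 2, neither of DCAF16 and LCORL was called (adjusted p from 0.0531 to 0.131).

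SMC2-DT, a noncoding transcript that runs divergently and overlaps SMC2 by 4.21 kb, had 1.46 and 1.11 CPM in DKO and 2.24 and 2.86 CPM in WT. It was lower by 0.98 on the log2 scale (standard error 0.17, edgeR adjusted p = 2.37e-07), and without WT replicate 2 the adjusted p was 0.0645. SMC5-DT, the divergent transcript 0.103 kb from SMC5, had 19.2 and 18.8 CPM in DKO and 16.8 and 17.8 CPM in WT and was not called (adjusted p = 0.109). VPS26B, a retromer subunit gene that overlaps the start of NCAPD3 by 0.791 kb on the opposite strand, fell by 0.28 (adjusted p = 0.000723, or 0.156 without WT replicate 1). Beside NCAPH2, 3 genes were lower too, LMF2 (-0.39, adjusted p = 0.0317), SCO2 (-0.31, 0.0166) and TYMP (-0.67, 5.01e-07). NCAPH2 had -0.17. LMF2 was not called without DKO replicate 2 or either WT library (adjusted p from 0.155 to 0.163), SCO2 without any 1 of the 4 libraries (0.055 to 0.133) and TYMP without WT replicate 1 (0.0752). Within 1 Mb of NCAPH2, 14 of 30 tested genes were lower and 0 higher, beside 21.1% lower and 19% higher of all tested genes. Near NCAPD2, GAPDH-DT was lower (-0.53, 0.0243), but not called without DKO replicate 2 or either WT library (0.063 to 0.333). There GAPDH (0.08, 0.163), MRPL51 (-0.11, 0.367) and IFFO1 (-0.07, 0.806) were not called. ITPRIPL1 beside NCAPH (-0.18, 0.158), CIMAP1B near NCAPH2 (-0.43, 0.149) and THAP5P1 near NCAPG2 (-0.11, 0.865) were not called either.

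Of the other SMC5/6 subunits and recruiters, 1 of 6 tested genes was higher and 0 lower, with a median log2 difference of 0.09. The shares over all tested genes were 19% higher and 21.1% lower, so nothing is read from this count. NSMCE2, the SUMO ligase, had 523 and 579 CPM in DKO and 458 and 484 CPM in WT. Its groups did not overlap, and the log2 difference was 0.22 (standard error 0.05, edgeR adjusted p = 0.000103). It was not called without WT replicate 1 (adjusted p = 0.216) or without WT replicate 2 (0.0902). NSMCE1, a RING-domain subunit, had 26.5 and 24.4 CPM in DKO and 22.7 and 23.6 CPM in WT, a log2 difference of 0.14 (adjusted p = 0.0862). The others were not called. They were the kleisin NSMCE4A (0.07, adjusted p = 0.319), the recruiters SLF1 (0.10, 0.0827) and SLF2 (0.04, 0.504), and SIMC1, a recruiter to viral DNA (-0.05, 0.475). NSMCE3 and EID3 are listed at 0 reads in all libraries. In the annotation they overlap ENTREP2 and TXNRD1, so a 0 may come from the counting rule above.

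Of 13 condensin regulators and scaffold partners, 5 were higher and 0 lower, with a median of 0.10. CDK1, CCNB1, PLK1, AURKB and TTK are also in the G2/M list below, so the 2 lists are not separate observations. The share called is close to the 40.1% of all tested genes (19% higher, 21.1% lower). TOP2A, the partner of condensin on mitotic chromosomes and here the degraded protein, had 165 and 168 CPM in DKO and 126 and 122 CPM in WT, a log2 difference of 0.42 (edgeR adjusted p = 3.46e-15). CDK1, the mitotic kinase that phosphorylates condensin, had 123 and 115 CPM in DKO and 101 and 107 CPM in WT (0.19, adjusted p = 0.000398). Its cyclin, CCNB1, had 48.6 and 44.4 CPM in DKO and 38 and 40.7 CPM in WT (0.24, 0.000148). TTK, the spindle checkpoint kinase also known as MPS1, had 100 and 104 CPM in DKO and 86.7 and 86.5 CPM in WT (0.24, 9.7e-06). AKAP8, an anchoring protein that binds condensin, had 58.5 and 58.2 CPM in DKO and 52.5 and 52.6 CPM in WT (0.15, 0.0131). In all 5 genes both DKO values were above both WT values. The same held for uncalled genes such as PLK1 and MKI67, so nothing is read from it. With either WT library left out, fewer genes were called over the whole table. TOP2A kept its call there, while CDK1, CCNB1, TTK and AKAP8 lost theirs. Without WT replicate 1 the log2 differences were 0.149 (CDK1), 0.193 (CCNB1), 0.239 (TTK) and 0.148 (AKAP8). Without WT replicate 2 they were 0.231, 0.289, 0.235 and 0.151.

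The 8 regulators not called lay from -0.05 to 0.14 on the log2 scale. The mitotic kinases PLK1 (0.14, adjusted p = 0.0571) and AURKB (0.10, 0.287) were among them. So were the chromosome-bound proteins KIF4A (0.10, 0.083), CDCA2 (0.10, 0.0905) and MKI67 (0.06, 0.277). MCPH1, an inhibitor of condensin II, had -0.04 (0.526), and RB1, which binds condensin II, had -0.05 (0.426).

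The cohesin core, the third SMC complex of the nucleus, had 2 of 5 genes higher and 0 lower. Its share called is close to the 40.1% of all tested genes, and its median was 0.09. RAD21, its kleisin, had 221 and 221 CPM in DKO and 176 and 182 CPM in WT, a log2 difference of 0.30 (edgeR adjusted p = 1.3e-08). STAG2 had 198 and 214 CPM in DKO and 182 and 197 CPM in WT (0.12, adjusted p = 0.0325), with 1 CPM between the groups. It was not called without DKO replicate 2 (adjusted p = 0.36), WT replicate 1 (0.552) or WT replicate 2 (0.143). STAG1 (0.09, 0.136) and both cohesin ATPases, SMC1A (-0.02, 0.743) and SMC3 (-0.01, 0.836), were not called. Of the SMC ATPases of the 3 complexes, SMC4 and SMC6 were called and SMC1A, SMC2, SMC3 and SMC5 were not.

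Called genes of mitosis were mostly higher in DKO, and called genes of S phase entry were all lower. Over all tested genes 19% were called higher and 21.1% lower. Of 19 tested genes known to peak in G2 and mitosis, 11 were higher and 3 lower, with a median of 0.17. CENPE, a kinetochore motor, was higher by 0.43 (adjusted p = 5.67e-15). The 3 lower ones, the kinase gene AURKA (-0.42), UBE2C (-0.40) and TPX2 (-0.21), all lie on chromosome 20, whose 430 tested genes had a median of -0.59. Of 20 genes known to peak at the G1/S boundary, 0 were higher and 12 lower, with a median of -0.16. The largest falls there were in E2F1, a transcription factor of S phase entry (-0.77), PCNA, the replication clamp (-0.65), and GINS1, a helicase subunit (-0.64), all on chromosome 20. Off that chromosome 11 of 16 G2/M genes were higher and 0 lower, and 9 of 17 G1/S genes lower and 0 higher. None of the 10 condensin and SMC5/6 genes lies on chromosome 20. With either WT library left out, fewer genes of both lists were called, as over the whole table. Without WT replicate 1 the log2 difference was 0.193 for CCNB1 and -0.241 for TPX2. Without WT replicate 2 it was 0.289 for CCNB1 and -0.18 for TPX2. Whether a shift in cell cycle position between the groups contributes to the SMC4 and SMC6 differences was not tested.

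**Figure D4:**
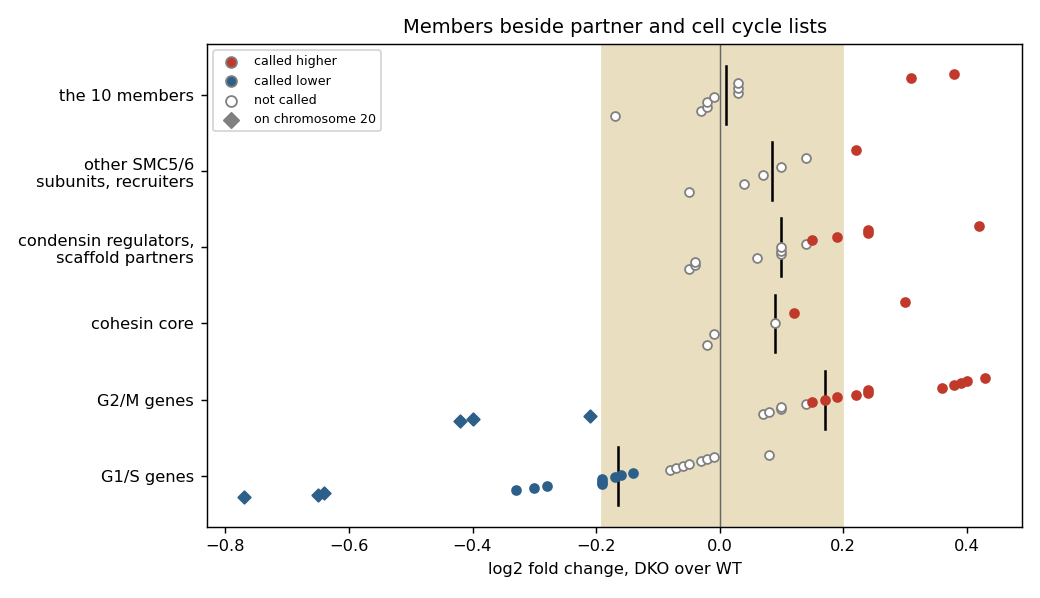
Log2 difference of DKO minus WT for the 10 genes, the other SMC5/6 genes, condensin regulators, the cohesin core and the G2/M and G1/S genes, 1 point a gene, with diamonds for genes on chromosome 20. A gene in more than 1 list is drawn in each. The G2/M points have a median of 0.17 and the G1/S points one of -0.16. The 10 genes have a median of 0.01.

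Condensin promoters hold letters that are known from genes repressed outside G2 and mitosis. The cell cycle genes homology region (CHR), bound by the DREAM and MYB-MuvB complexes, reads TTTGAA, with TTTAAA as a variant. Both strands were searched from 250 bases before to 50 bases after each RefSeq start (GRCh38.p14). Of the 10 genes, 9 have a promoter entry. TTTGAA was present in 6 of 7 condensin genes and TTTAAA in NCAPH. SMC5 and SMC6 had neither. Counted in the same way, per gene over all listed starts, TTTGAA was present in 18.2% of 27305 genes, TTTAAA in 14.5% and either in 27.9%. Per promoter the shares of 35116 were 15.2%, 12.2% and 24%. Either was present in 13 of 16 G2/M genes, 4 of 17 G1/S genes and 1 of 4 cohesin genes. CCAAT was found in 3 of 7 condensin genes, NCAPD2, NCAPH and NCAPD3, a share close to the 39.7% of all genes (34.6% of promoters). It was present in 14 of 16 G2/M genes, 12 of 17 G1/S genes and 2 of 4 cohesin genes. The E2F motif GCGGGAA was found in NCAPG and NCAPD3, against 7.82% of all genes (6.55% of promoters). It was present in 0 of 16 G2/M genes, 8 of 17 G1/S genes and 2 of 4 cohesin genes. The windows of 30 bases below show 1 match for each of the 7 condensin genes, in the direction of the gene, with the match in capitals. TTCAAA is TTTGAA read on the other strand.
NCAPD2: cagccgttgagaTTTGAActcggtatttgt
NCAPG: tcgcgggaattaTTTGAAcgttcgagcggt
NCAPH: cgacgcgcgcgaTTTAAAaccagctcagga
NCAPD3: gcgggagcgagcTTTGAAagttgagcacgg
NCAPG2: gcgccggcgggtgcgTTTGAAtctggtccg
SMC2: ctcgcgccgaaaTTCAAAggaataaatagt
SMC4: gccgcactttttTTCAAAttagtggatccc
In that order they lie at chr12:6493945-6493974, chr4:17810932-17810961, chr2:96335786-96335815, chr11:134223953-134223982 (reverse strand), chr7:158704755-158704784 (reverse strand), chr9:104094294-104094323 and chr3:160399563-160399592. The match begins 145 bases before the start in NCAPD2, 35 in NCAPG and 75 in SMC4, and 3 bases before a listed start inside the annotated span in NCAPD3 and SMC2. It begins at base 33 of NCAPH and base 36 of NCAPG2. All 7 hold a match, and only SMC4 of the 7 was called. A match describes the letters in the window and is neither a binding site nor a cause.

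The calls of SMC4 and SMC6 held under each of the 14 alternative settings, which changed the scaling, the filter, the test or the libraries used. The log2 difference of SMC4 ranged from 0.29 to 0.35 and its adjusted p from 4.4e-14 to 0.043. That of SMC6 ranged from 0.36 to 0.42 and its adjusted p from 1.17e-17 to 0.0306. NCAPH2 was called in 1 of the 14, and the remaining 7 genes in none.

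**Figure D5:**
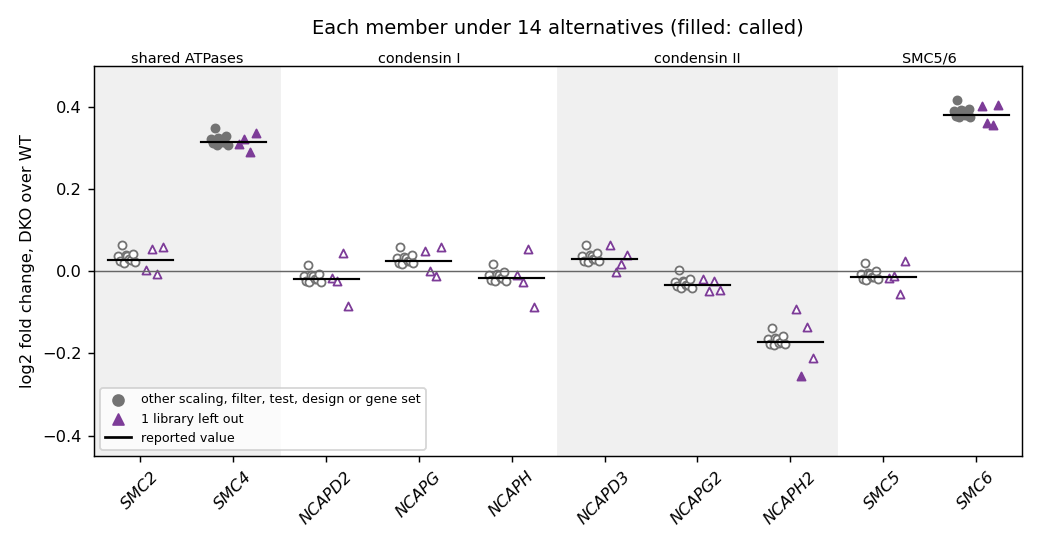
Log2 difference of DKO minus WT for the 10 genes under the main setting and the 14 alternatives, with calls told apart from values not called. SMC4 stays between 0.29 and 0.35 and SMC6 between 0.36 and 0.42, and the 7 genes never called stay between -0.09 and 0.06.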

How the data were processed

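TTchem-seq libraries of HCT116 cells, 2 DKO and 2 WT, were grouped by their titles. The deposited values are raw counts per Ensembl gene, made by the authors with STAR 2.7.3a, featureCounts 1.6 and build hg38, per the submitters' processing notes. Per the labels' protocols a stranded kit was used. Which features were counted and by which strand setting is not given in the sources used here. Strand use was read from nested genes. Values are shares of a library, with no spike-in scaling. The 10 genes and the lists were chosen with earlier results of these data known.

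Gene names and spans came from RefSeq tables (GRCh38.p14). Genes were tested with the edgeR 4.0.16 quasi-likelihood F-test in R 4.3.3 with TMM factors and filterByExpr defaults (minimum count 10, total 15), with group as the only term. The threshold was a Benjamini-Hochberg adjusted p of 0.05 over 19103 genes. The ± values are SDs of TMM-scaled CPM. The biological coefficient of variation was 3.46%. Ratios were compared by exact permutation. The test was checked on simulated data. Replicates differed beyond counting noise, with a chi-square per degree of freedom of 4.57 in DKO and 3.98 in WT.

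Named genes were the 10, every tested gene of the partner, regulator and cohesin lists, the 3 largest called changes of the cell cycle lists, every tested gene within 20 kb, and the 3 profiles nearest to SMC6. Others are marked as named after their values were seen, apart from markers, topoisomerases and TPX2, which complete a count. The 14 alternatives were other scaling factors, other filters, DESeq2 1.42.0, limma 3.58.1 voom, the replicate number as a block, gene subsets and each library left out. Figures were drawn with matplotlib 3.10.9. Protein sequences were not used here. One regulator that enters the counts is not reported here by name.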

Additional observations from a re-analysis of the deposited data

How the results depend on the processing

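Over 14 alternatives, the call or its absence stayed with the same sign in 129 of 140 values of the 10 genes. NCAPH2 gained a call without DKO replicate 2, which makes the number lower range from 0 to 1 over left-out libraries, for the 10 genes and for condensin II. The other 10 values, all uncalled, changed sign. With upper quartile factors, which move the median of all genes to 0.028, the log2 differences were NCAPD2 0.015, NCAPH 0.018, NCAPG2 0.002, SMC5 0.02, SMC1A 0.01 and SMC3 0.02. With a library left out, ranges that span 0 were NCAPD2 -0.084 to 0.044, NCAPG -0.012 to 0.06, NCAPH -0.087 to 0.053, NCAPD3 -0.002 to 0.063, SMC2 -0.006 to 0.06, SMC5 -0.055 to 0.025, SMC1A -0.065 to 0.014, MRPL51 -0.245 to 0.008, IFFO1 -0.298 to 0.123 and THAP5P1 -0.406 to 0.245. The other SMC5/6 genes called higher (1) became 3 with upper quartile factors, 0 with no filter, 2 with at least 50 reads or protein-coding genes only, and 0 to 2 with a library left out. The regulators called higher (5) became 8 with upper quartile factors, at least 50 reads or protein-coding genes, 2 with no filter, and 1 to 6 with a library left out. Cohesin genes called higher (2) became 1 with no filter or DESeq2 and 1 to 3 with a library left out. G2/M genes called higher (11) became 7 with no filter and 5 to 11 with a library left out, and those called lower (3) became 0 without chromosome 20. G1/S genes called lower (12) became 4 to 12 with a library left out. Of the values of the other named genes, 691 kept their sign and their side of the threshold, 50 lost a call, 22 gained one and 8 changed sign. The cause of these moves was not tested. Left-out libraries leave 1 sample in a group, assumed to vary like the other group. Genes called over the whole table numbered 3632 higher and 4025 lower, 1640 and 1655 with no filter, 2479 and 2524 with DESeq2, 1023 and 928 without WT replicate 1, and 1467 and 1650 without WT replicate 2. Over all tested genes the deviations of same-numbered libraries had a correlation of 0.011. That value weighs genes with few reads like the others, so it cannot settle whether the numbers mark a pairing. With the replicate block 3742 genes were higher and 4078 lower, 2 other SMC5/6 genes were higher in place of 1, with SLF1 gained (adjusted p = 0.049), and 3 cohesin genes in place of 2, with STAG1 gained (0.0352), and no call among the 10 genes changed. Depth limits NCAPH2 most, with 637 reads in its lowest library.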
